A study of Mus musculus with 6 samples.

Results

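The 9 genes described here are factors and markers of the oligodendrocyte lineage: Olig1, Olig2, Nkx2-2, Sox10, Cspg4, Gpr17, Myrf, Cnp and Mbp. They were chosen by name, as the rows of a count table of 42365 genes whose symbol matched, and all 9 were found and had enough counts to be tested. The table holds RNA-seq counts from a cultured line of neural progenitor cells of the mouse (NPC in the labels), which are able to form neurons as well as glia. Its 6 libraries fall into 3 groups of 2: clone 1 with genotype KO in the labels, clone 2 with genotype KO, and parental cells with genotype WT. Each group labelled KO is 1 clone, so what sets a clone apart from its parent cannot be told apart from the genotype within that clone. Counts of the targeted gene were no lower in any library labelled KO than in the parental libraries, and its mean CPM was no lower in either clone. Counts per gene therefore do not bear out the KO labels, although they cannot show an edit that leaves the RNA in place. The genotype rests on the labels alone, the clones are called labelled knockout, and every difference between them and parental cells is a difference between libraries so labelled. The titles number the parental libraries as clone 1 and clone 2. The sources used here do not say whether these are independent, nor whether the libraries of each clone were grown apart. P-values from single libraries may therefore measure technical spread. Tests that take the 2 clones as replicates also draw on the spread between the 2 parental libraries, so they share part of this limit. Libraries were made with 1 of 2 kits, without a label that says which library had which, so a kit that differed between groups cannot be told apart from them.

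Oligodendrocytes are the myelinating glia of the central nervous system. They arise from progenitors that switch on the basic helix-loop-helix factors Olig1 and Olig2 and the homeodomain factor Nkx2-2, become precursors that carry the proteoglycan NG2, encoded by Cspg4, and the receptor kinase Pdgfra, and then pass through a committed stage marked by the receptor Gpr17. Sox10 and Myrf are the factors that turn on myelin genes such as Mbp and Cnp. Olig2 is also expressed in neural progenitors and in some glioma cells, so it is not by itself a sign of a committed precursor.

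Of the 9 genes, 4 rose and 4 fell in the labelled knockout clones. Olig1, Olig2, Nkx2-2 and Cspg4 rose 5.83-fold, 4.29-fold, 3.73-fold and 2.80-fold in the labelled knockout clones against parental cells. Gpr17 fell 13.4-fold, Mbp 3.49-fold, Myrf 2.35-fold and Cnp 1.93-fold. Sox10 went in opposite directions in the 2 clones. An adjusted p is from edgeR's quasi-likelihood test with Benjamini-Hochberg adjustment over all genes tested, with a threshold of 0.05. Over all 24506 genes tested, 13.0% were called higher and 13.6% lower. Wider lists of precursor, committed and myelin genes, described further on, each held genes that rose and genes that fell.

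The RefSeq promoter table for the build GRCm38.p6 held 4 of the 9 genes, those of Olig2, Nkx2-2, Cnp and Cspg4. The stretches from 250 bases before to 50 bases after the start are shown for 2 early factors that rose, Olig2 and Nkx2-2, and for Cnp, a myelin gene that fell. Olig2 lies on the forward strand (chr16:91225300-91225599), Nkx2-2 on the reverse strand (chr2:147186353-147186652) and Cnp on the forward strand (chr11:100574689-100574988). The Nkx2-2 start used by RefSeq lies inside the longer GENCODE gene model. Capitals mark matches on either strand to 4 motifs: the helix-loop-helix site or E-box CANNTG, the SOX core ATTGT, the NKX2 site CACTTNA and the MYRF site CTGGCAC.
Olig2: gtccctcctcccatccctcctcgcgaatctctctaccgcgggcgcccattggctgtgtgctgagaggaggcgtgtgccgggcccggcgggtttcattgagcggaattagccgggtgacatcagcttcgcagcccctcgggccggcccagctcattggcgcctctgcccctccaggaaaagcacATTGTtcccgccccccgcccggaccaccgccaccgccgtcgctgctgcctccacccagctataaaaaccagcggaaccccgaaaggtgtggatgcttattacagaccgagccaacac
Nkx2-2: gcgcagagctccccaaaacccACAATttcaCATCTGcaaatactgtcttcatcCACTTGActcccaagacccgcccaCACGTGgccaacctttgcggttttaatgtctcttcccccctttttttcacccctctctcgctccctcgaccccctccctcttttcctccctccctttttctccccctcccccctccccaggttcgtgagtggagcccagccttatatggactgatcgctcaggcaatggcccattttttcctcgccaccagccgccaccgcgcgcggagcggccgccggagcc
Cnp: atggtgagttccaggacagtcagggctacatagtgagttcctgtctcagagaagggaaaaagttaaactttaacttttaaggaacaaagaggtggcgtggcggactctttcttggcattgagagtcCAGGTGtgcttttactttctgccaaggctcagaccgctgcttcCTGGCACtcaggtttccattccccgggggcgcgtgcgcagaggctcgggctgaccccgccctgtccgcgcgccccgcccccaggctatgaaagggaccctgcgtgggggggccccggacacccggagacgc

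The Olig2 window held 1 SOX core, 67 bases before the start, and 0 E-boxes. The Nkx2-2 window held 3 E-boxes, 1 SOX core and 1 NKX2 site, and that NKX2 site, 197 bases before the start, overlaps an E-box that begins at the same base. In the Cnp window 1 MYRF site stood 81 bases before the start, beside 1 E-box. The Cspg4 window, not printed, held 1 SOX core. Of all 32851 promoters of this length, 72.3% held an E-box, 31.0% a SOX core, 11.5% the NKX2 site and 5.01% the MYRF site. Matches of letters are a description and were not tested for binding.

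Levels of different genes are compared per length, as TPM (counts divided by the length of the gene's merged exons and scaled to the same sum in each library). Olig1 was among the most abundant RNAs of these cells, with 2675 ± 29.4 TPM in clone 1, 3719 ± 166 TPM in clone 2 and 577 ± 2.96 TPM in parental cells (SD, n = 2 each). By TPM it ranked 24th in clone 1, 23rd in clone 2 and 83rd in parental cells, of 41791 genes. Olig2 followed with 1280 ± 75.0 TPM in clone 1, 1396 ± 23.98 TPM in clone 2 and 329 ± 6.49 TPM in parental cells.

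In parental cells the order below these was Cnp (178 TPM), Gpr17 (61.1 TPM), Cspg4 (31.5 TPM), Nkx2-2 (9.65 TPM), Myrf (1.63 TPM), Sox10 (0.916 TPM) and Mbp (0.317 TPM), each further from its neighbour than their SDs. In clone 1 it was Cnp (76.3 TPM), Cspg4 (68.8 TPM), Nkx2-2 (32.6 TPM), Gpr17 (5.25 TPM), Myrf (0.751 TPM), Sox10 (0.395 TPM) and Mbp (0.0839 TPM). In clone 2 Cnp, at 99.3 ± 2.83 TPM, and Cspg4, at 98.4 ± 1.37 TPM, did not differ beyond their spread. They were followed by Nkx2-2 (35.6 TPM), Gpr17 (3.30 TPM), Sox10 (1.69 TPM), Myrf (0.555 TPM) and Mbp (0.0867 TPM). The RNA of these genes was thus mostly that of Olig1 and Olig2 in all 3 groups, while Sox10, Myrf and Mbp were near the low end.

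**Figure D1:**
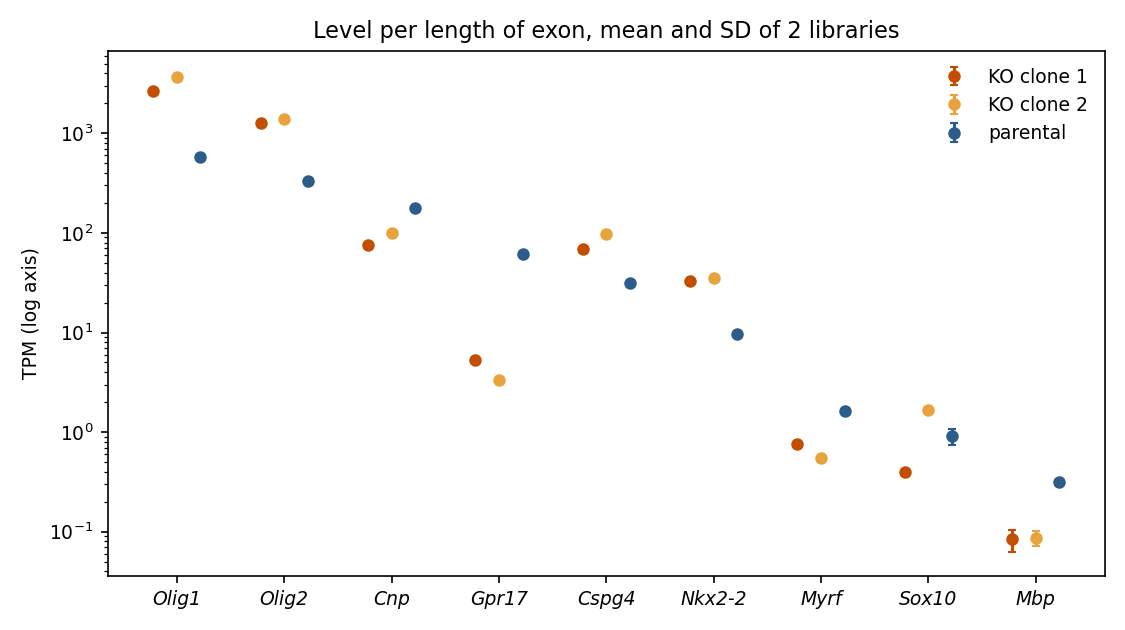
Level of each gene per length of exon (TPM, logarithmic axis), as the mean of the 2 libraries of a group with their SD, for labelled knockout clone 1, labelled knockout clone 2 and parental cells. Olig1 stands at 2675, 3719 and 577 TPM and Mbp at 0.0839, 0.0867 and 0.317 TPM.

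Values of 1 gene across libraries are given in CPM (counts scaled to the library size after TMM adjustment). Olig1 (chromosome 16, 91269772 to 91271933, forward strand, GRCm38), a helix-loop-helix factor of precursors that also acts in their maturation, had 2995 and 3148 CPM in clone 1, 3844 and 4070 CPM in clone 2, and 619 and 614 CPM in parental cells. All 4 labelled knockout libraries lay above both parental ones, and those of clone 2 above those of clone 1. With the 2 clones as replicates its log2 fold change was 2.54 (SE 0.15, adjusted p = 0.000537), which ranked 478th from the highest of 24506 genes.

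Olig2 (chromosome 16, 91225457 to 91228677, forward strand), which specifies the lineage and also motor neurons, had 1761 and 1677 CPM in clone 1, 1723 and 1755 CPM in clone 2, and 406 and 417 CPM in parental cells. The clones overlapped each other and both lay far above parental cells. Its log2 fold change was 2.10 (SE 0.09, adjusted p = 0.000267). The difference of clone 2 from clone 1 was 0.02 on the log2 scale, with an interval of -0.07 to 0.10 (2 SE on either side).

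The balance of this gene pair differed between the groups. The TPM ratio of Olig1 to Olig2 was 1.99 and 2.20 in clone 1, 2.61 and 2.71 in clone 2, and 1.78 and 1.72 in parental cells. No library of one group overlapped those of another. The ratio of Nkx2-2 to Olig2 stayed closer, at 0.0246 and 0.0264 in clone 1, 0.0245 and 0.0265 in clone 2, and 0.0294 and 0.0292 in parental cells.

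Nkx2-2 (chromosome 2, 147177546 to 147194243, reverse strand), a homeodomain factor of the ventral neural tube that promotes the maturation of precursors, had 49.2 and 50.3 CPM in clone 1, 48.0 and 52.8 CPM in clone 2, and 13.6 and 13.8 CPM in parental cells. Both clones were well above parental cells and overlapped each other. Its log2 fold change was 1.90 (SE 0.10, adjusted p = 0.000375). Clone 2 differed from clone 1 by 0.02, with an interval of -0.10 to 0.14 (2 SE on either side).

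Cspg4 (chromosome 9, 56865033 to 56899870, forward strand), which encodes the NG2 proteoglycan of precursors and pericytes, had 420 and 452 CPM in clone 1, 574 and 582 CPM in clone 2, and 188 and 184 CPM in parental cells. The 3 groups did not overlap. Its log2 fold change was 1.48 (SE 0.16, adjusted p = 0.00266). Of 8 pericyte markers, 1 rose, 4 fell and 3 did not pass. Their sum was 185 and 194.5 CPM in clone 1, 245 and 246 CPM in clone 2, and 145 and 140.5 CPM in parental cells, higher in both clones. Nearly all of it was Notch3, a receptor gene that neural progenitors also express, which rose and had 189 CPM in clone 1, 244 CPM in clone 2 and 135.5 CPM in parental cells. The other 7 were under 1 CPM in both clones. The channel gene Kcnj8 was at 0.0219 CPM in clone 1, 0.0540 CPM in clone 2 and 3.53 CPM in parental cells, and Pdgfrb at 0.196 CPM in clone 1, 0.0459 CPM in clone 2 and 0.631 CPM in parental cells. The part of pericytes in the Cspg4 values was not tested.

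**Figure D2:**
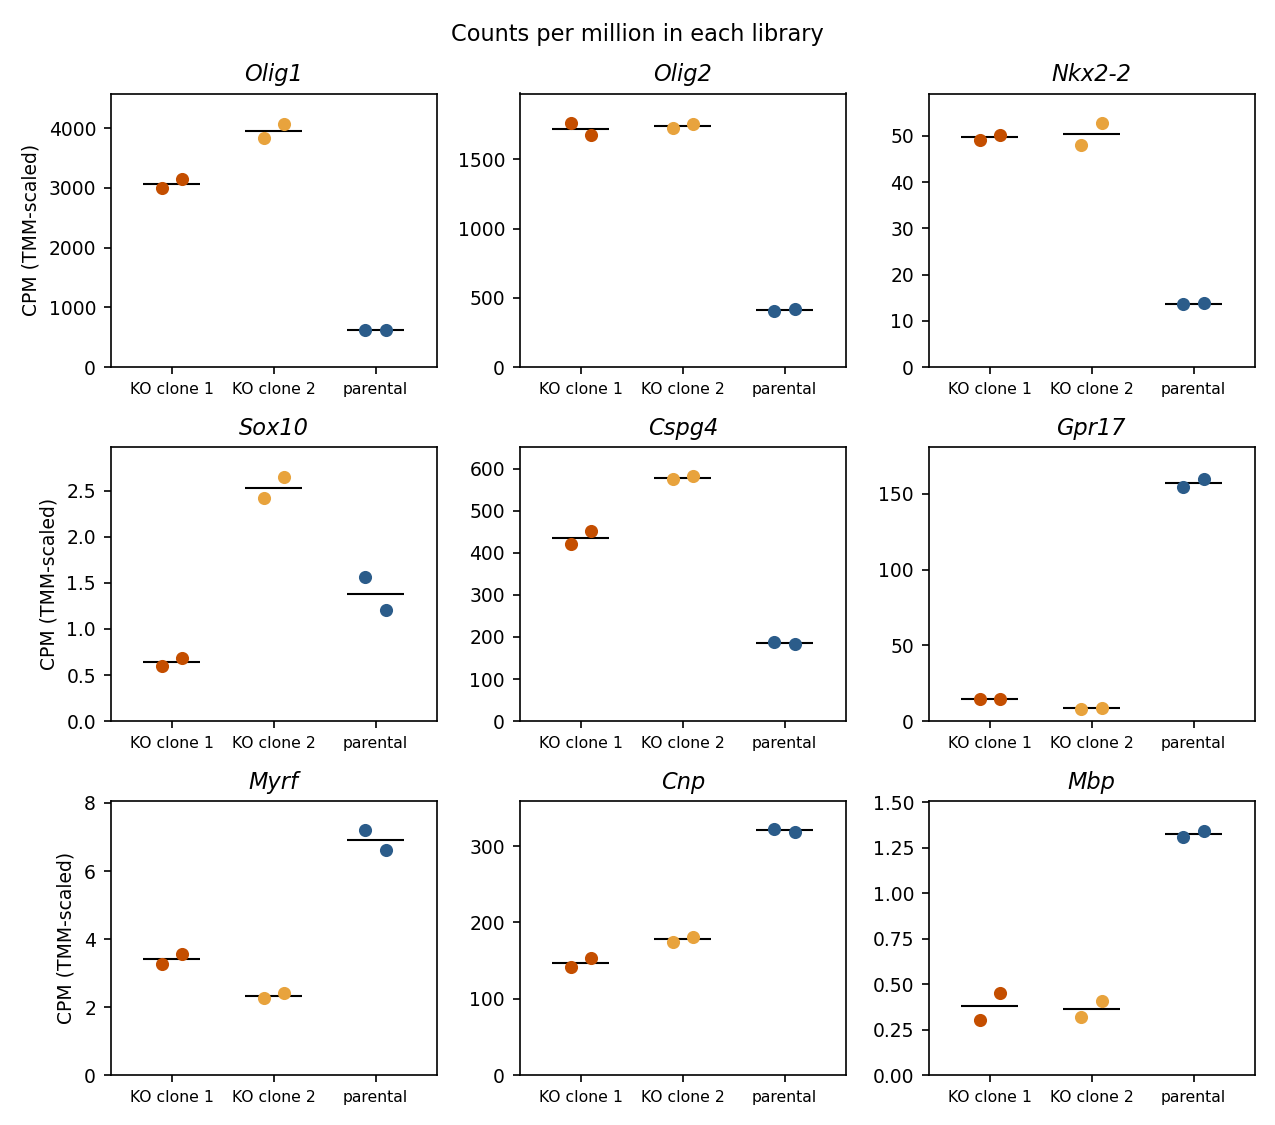
CPM of each gene in each library (points) with the mean of the 2 libraries of a group (line), for labelled knockout clone 1, labelled knockout clone 2 and parental cells; every axis starts at 0. Olig1, Olig2, Nkx2-2 and Cspg4 lie higher in both clones, Gpr17, Myrf, Cnp and Mbp lower, and Sox10 lies below parental cells in clone 1 and above them in clone 2.

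Gpr17 (chromosome 18, 31942997 to 31949636, reverse strand), a G protein-coupled receptor of committed precursors that holds back their maturation, fell the most of the 9. It had 14.6 and 14.4 CPM in clone 1, 8.23 and 8.65 CPM in clone 2, and 154 and 160 CPM in parental cells. The groups did not overlap, and clone 2 was the lowest. The log2 fold change was -3.75 (SE 0.27, adjusted p = 0.000982), which ranked 542nd from the lowest of 24506 genes. Set per length against Olig2, Gpr17 stood at 0.00403 and 0.00418 in clone 1, 0.00233 and 0.0024 in clone 2, and 0.185 and 0.186 in parental cells.

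Myrf (chromosome 19, 10208272 to 10240748, reverse strand), the membrane-bound factor that drives myelin genes, was a minor transcript. It had 215 and 244 counts (3.28 and 3.56 CPM) in clone 1, 151 and 148 counts (2.28 and 2.40 CPM) in clone 2, and 462 and 390 counts (7.20 and 6.62 CPM) in parental cells. Both clones lay below parental cells without overlap. Its log2 fold change was -1.23 (SE 0.23, adjusted p = 0.0162). Without parental library 1 the adjusted p was 0.101 and without parental library 2 it was 0.0669, so the call with the clones as replicates needs both.

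Cnp (chromosome 11, 100574904 to 100591729, forward strand), which encodes a phosphodiesterase of myelin that precursors already make, had 142 and 153 CPM in clone 1, 175 and 181 CPM in clone 2, and 323 and 318 CPM in parental cells. It was lowest in clone 1, with no overlap between groups. Its log2 fold change was -0.94 (SE 0.12, adjusted p = 0.00494).

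Mbp (chromosome 18, 82475146 to 82585637, forward strand), the gene of myelin basic protein, had 20 and 31 counts (0.305 and 0.452 CPM) in clone 1, 21 and 25 counts (0.317 and 0.406 CPM) in clone 2, and 84 and 79 counts (1.31 and 1.34 CPM) in parental cells. The clones overlapped and both were below parental cells. Its log2 fold change was -1.80 (SE 0.23, adjusted p = 0.00494). The gene has 16 annotated transcripts, among them the longer Golli forms that other cells use, and counts per gene cannot tell these from the myelin forms. At this depth clone 2 and clone 1 could not be told apart, with a difference of -0.07 and an interval of -0.74 to 0.60 on the log2 scale (2 SE on either side).

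Sox10 (chromosome 15, 79154908 to 79165240, reverse strand), a factor of oligodendrocyte precursors and of the neural crest, was low in every library. It had 39 and 47 counts (0.595 and 0.685 CPM) in clone 1, 160 and 163 counts (2.42 and 2.65 CPM) in clone 2, and 100 and 71 counts (1.56 and 1.21 CPM) in parental cells. Clone 1 lay below parental cells and clone 2 above them, without overlap. With the clones as replicates the log2 fold change was 0.23 (SE 0.66, adjusted p = 0.829), and its sign turned under 3 other analyses.

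In single-library fits Sox10 changed by -1.11 (SE 0.23, adjusted p = 0.000512) in clone 1 and by 0.87 (SE 0.19, adjusted p = 0.00106) in clone 2, each against parental cells. Markers of Schwann cells and neural crest, other cells that use Sox10, ran the other way as a sum, with 205 and 200 CPM in clone 1, 96.1 and 99.4 CPM in clone 2, and 130 and 135 CPM in parental cells over 8 genes. With the clones as replicates 2 of the 8 rose, 2 fell, 3 did not pass and 1 was not tested. The 2 that rose were Pou3f1, at 62.5 CPM in clone 1, 23.8 CPM in clone 2 and 2.79 CPM in parental cells, and Pmp22. Pmp22 had 19.25 CPM in clone 1, 15.4 CPM in clone 2 and 5.42 CPM in parental cells. Tfap2a, a neural crest factor gene and 1 of the 2 that fell, had 46.3 CPM in clone 1, 36.0 CPM in clone 2 and 102.6 CPM in parental cells. Foxd3, another such factor gene, was near absent in all 3 groups, with a count of 0 in both clones and 2 and 1 in the parental libraries. The part of such cells in the Sox10 values was not tested.

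Each clone was then set against the parental libraries in 1 fit of all 6. In clone 1, 4 of the 9 genes were called higher and 5 lower, where 27.3% of 23400 genes were called higher and 27.2% lower. In clone 2, 5 were higher and 4 lower, against 26.7% and 26.8% of all genes. The comparisons share the parental libraries. With background shares this large, the sizes say more than the calls. Olig1 rose by 2.32 (SE 0.05) in clone 1 and by 2.68 (SE 0.05) in clone 2 on the log2 scale. Gpr17 changed by -3.44 (SE 0.05) in clone 1 and by -4.22 (SE 0.06) in clone 2. For Myrf the changes were -1.02 (SE 0.12) in clone 1 and -1.56 (SE 0.13) in clone 2. For Cnp they were -1.12 (SE 0.05) in clone 1 and -0.85 (SE 0.05) in clone 2.

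**Figure D3:**
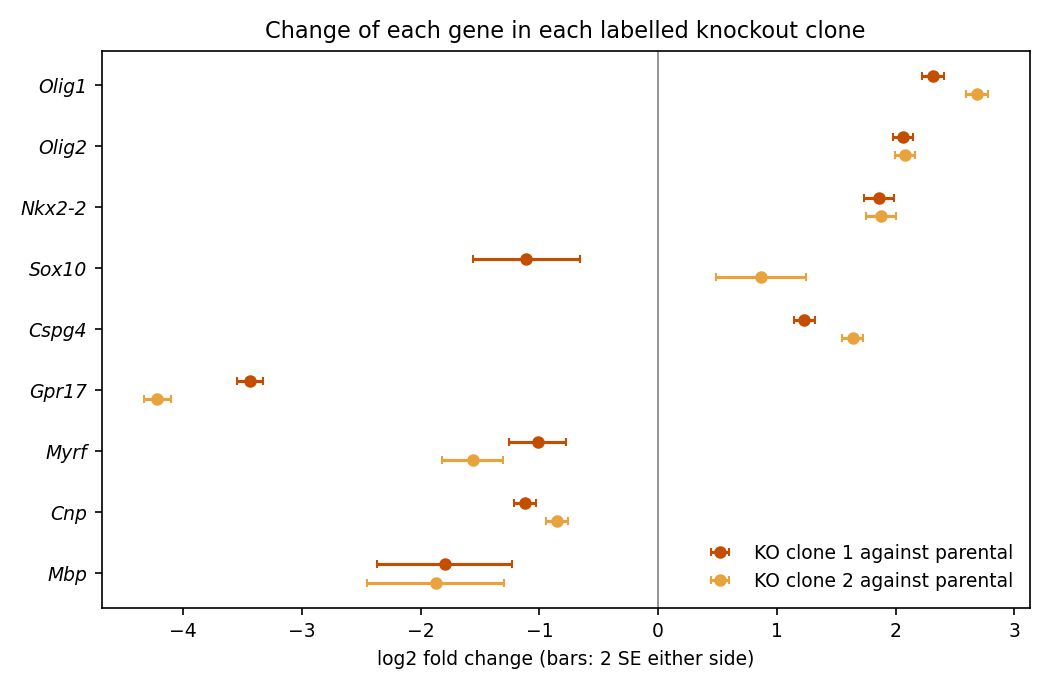
Log2 fold change of each gene in clone 1 and in clone 2 against parental cells, with bars of 2 SE on either side. Olig2, Nkx2-2 and Mbp lie at nearly the same place in both clones, and Sox10 lies at -1.11 in clone 1 and 0.87 in clone 2.

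The clones were compared with each other by the contrast of clone 2 with clone 1. Of the 9 genes, 4 were higher in clone 2 (Olig1, Sox10, Cspg4 and Cnp) and 2 lower (Gpr17 and Myrf), where 16.1% of 23400 genes were called higher and 20.3% lower. Sox10 had the largest difference of the 9, 1.98 (SE 0.21, adjusted p = 1.92e-06) on the log2 scale, or 3.94-fold, and ranked 275th from the highest. The other 5 differences were smaller, from -0.78 (SE 0.06) for Gpr17 to 0.41 (SE 0.04) for Cspg4. For Myrf the adjusted p was 0.00424, and 0.0604 without library 1 of clone 2. Olig2, Nkx2-2 and Mbp did not pass.

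A wider list of 59 other genes of the lineage, sorted by the stage they are known for, gave no uniform direction. Of these, 54 could be tested, and 12 were called higher and 14 lower with the clones as replicates, where 13.0% and 13.6% of all genes were. Their median log2 fold change was -0.42, beside 0.03 over all genes. Without parental library 1 the calls numbered 17 and without parental library 2 they numbered 16. The 5 genes with too few counts were Nkx6-1, Mag, Cldn11, Gjb1 and Ermn, each at most 0.1075 CPM in any group.

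At the precursor stage 7 of 20 genes rose, 6 fell, 6 did not pass and 1 was not tested, with a median of -0.34 over the 19 tested. The proteoglycan gene Cspg5 had 838 ± 0.161 CPM in clone 1, 984 ± 23.7 CPM in clone 2 and 261 ± 0.396 CPM in parental cells (SD, n = 2 each), a log2 fold change of 1.84 (SE 0.12, adjusted p = 0.000592). Sox5, which delays the maturation of precursors, rose by 1.30 (SE 0.09, adjusted p = 0.000823). Ptprz1, a receptor phosphatase gene of precursors and radial glia, rose by 0.96 (SE 0.09, adjusted p = 0.00183). The endothelin receptor gene Ednrb fell by 2.43 (SE 0.15, adjusted p = 0.000537), and the receptor gene Gpr37l1, which astrocytes also express, fell by 2.61 (SE 0.11, adjusted p = 0.000272) in log2 units.

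Pdgfra, the gene of the receptor through which precursors are driven to divide, had 56.7 ± 1.63 CPM in clone 1, 31.2 ± 0.534 CPM in clone 2 and 56.7 ± 0.025 CPM in parental cells (SD, n = 2 each). With the clones as replicates its log2 fold change was -0.34 (SE 0.28, adjusted p = 0.422).

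At the committed stage 4 of 14 genes rose, 3 fell and 7 did not pass, with a median of -0.18. The kinase gene Fyn rose by 0.94 (SE 0.10, adjusted p = 0.00279), the calcium channel gene Itpr2 by 0.86 (SE 0.09, adjusted p = 0.00299) and Bcas1 by 0.67 (SE 0.10, adjusted p = 0.00698), all in log2 units. The adhesion gene Nfasc fell by 3.01 (SE 0.26, adjusted p = 0.00138), to 5.68 CPM in clone 1 and 3.40 CPM in clone 2, against 37.5 CPM in parental cells. Enpp6 fell by 3.095 (SE 0.76, adjusted p = 0.0399), to 0.425 CPM in clone 1 and 0.0621 CPM in clone 2, against 2.15 CPM in parental cells. The other 2 calls were smaller, with Sirt2 down by 0.39 (SE 0.08, adjusted p = 0.0262) and Zfp24 up by 0.56 (SE 0.10, adjusted p = 0.00893). So of the markers of this stage that were called, Gpr17, Nfasc, Enpp6 and Sirt2 fell while Bcas1, Itpr2, Fyn and Zfp24 rose.

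Myelin genes were mostly near the detection limit. Of 25, 14 in clone 1, 16 in clone 2 and 13 in parental cells were under 1 CPM. With the clones as replicates 1 rose, 5 fell, 15 did not pass and 4 were not tested, with a median of -0.74 over the 21 tested. Cryab, a small heat shock gene that astrocytes also use, fell by 2.40 (SE 0.11, adjusted p = 0.000328) in log2 units, and the fatty acid hydroxylase gene Fa2h had a log2 fold change of -2.82 (SE 0.30, adjusted p = 0.00261). The amidohydrolase gene Aspa fell by 1.084 (SE 0.23, adjusted p = 0.0235). The gene that rose was Gamt, of creatine synthesis, by 1.15 (SE 0.13, adjusted p = 0.00341). Mog was at 0.0146 CPM in clone 1, 0.0313 CPM in clone 2 and 0.253 CPM in parental cells.

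**Figure D4:**
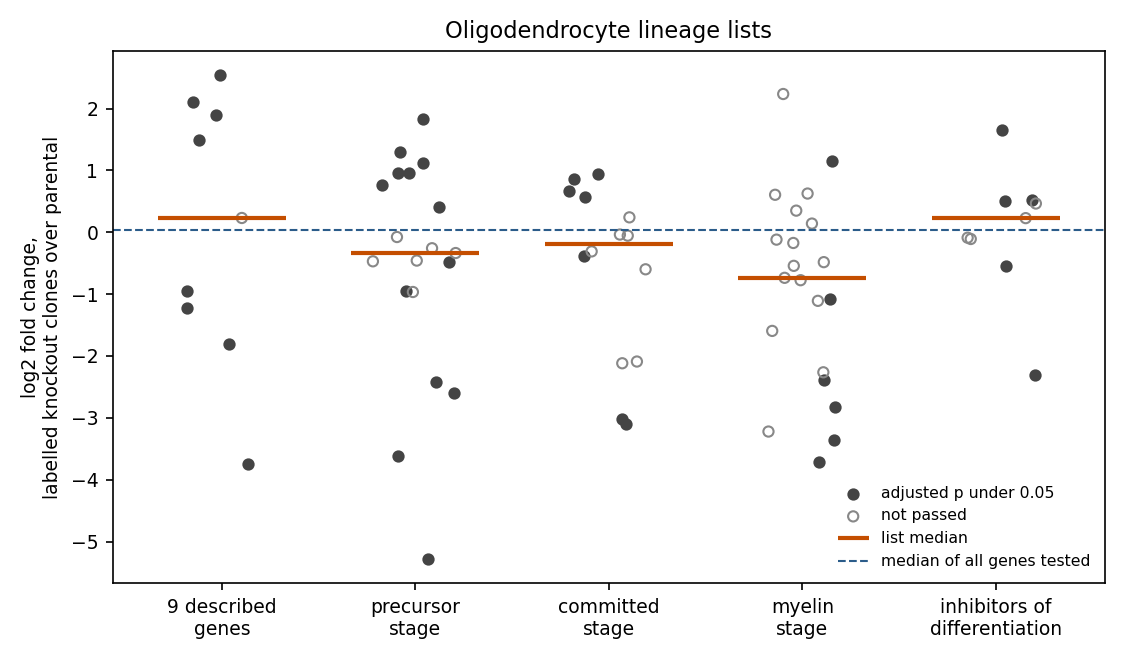
Log2 fold change of the labelled knockout clones over parental cells for the 9 genes and the 4 wider lists. Each point is a gene (filled: adjusted p under 0.05; open: not passed), the thick line the list's median over tested genes and the dashed line the median of all genes tested, 0.03.

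Of 10 genes listed here as inhibitors of oligodendrocyte differentiation, 3 rose, 2 fell, 4 did not pass and 1 was not tested. Over all genes 13.0% rose and 13.6% fell. Tcf4, for which such a role is doubtful, was among the 4 that did not pass. Log2 fold changes were 1.65 (SE 0.11, adjusted p = 0.000687) for Hes1, a Notch target, and 0.50 (SE 0.08, adjusted p = 0.0118) for Notch1. Id4, an inhibitor of helix-loop-helix factors, fell by 2.31 (SE 0.21, adjusted p = 0.00159), to 3.25 CPM in clone 1 and 2.28 CPM in clone 2, against 14.1 CPM in parental cells. Lingo1 fell by 0.55 (SE 0.09, adjusted p = 0.0093).

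Markers of other cell types and of division moved between the same groups. Summed over 8 genes, mitosis markers had 1173 and 1145 CPM in clone 1, 720 and 717 CPM in clone 2, and 13.2 and 14.8 CPM in parental cells, and all 8 rose. Astrocyte markers had 2713 and 2695 CPM in clone 1, 3656 and 3686 CPM in clone 2, and 7238 and 7265 CPM in parental cells. Of these 8 genes, 4 fell, 1 rose and 3 did not pass. The largest fall in CPM was that of Gfap, with 1.59 CPM in clone 1, 9.70 CPM in clone 2 and 2691 CPM in parental cells. S100b rose, and Slc1a2 did not pass, with 1113 CPM in clone 1, 1567 CPM in clone 2 and 1054 CPM in parental cells. Young neuron markers had 51.7 and 48.8 CPM in clone 1, 32.4 and 34.4 CPM in clone 2, and 109.8 and 109.9 CPM in parental cells; 4 of 8 fell and 4 did not pass. All 8 microglia markers were under 1 CPM in each group. The part of these differences in those of the 9 genes was not tested. In bulk RNA, fewer cells of a type and less RNA per cell cannot be told apart, for the 9 genes too.

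Of 8 neural progenitor markers, which the label of the line calls for, 2 rose, 3 fell and 3 did not pass. Sox2 was at 308 CPM in clone 1, 322 CPM in clone 2 and 358 CPM in parental cells, whereas Sox1 was at 3.35 CPM in clone 1, 3.17 CPM in clone 2 and 60.5 CPM in parental cells. Prom1 was under 1 CPM in each group. Fabp7 and Nes rose by 1.91 (SE 0.09) and 1.19 (SE 0.10), and Sox1 and Msi1 fell by 4.18 (SE 0.11) and 1.29 (SE 0.08) on the log2 scale.

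Gene models on the other strand overlap 5 of the 9 genes. The sources used here do not give the strand setting of the counting, so reads of overlapping genes may have been shared. Gpr17 lies within Lims2, an adaptor gene of integrin signalling on the forward strand. Lims2 had 184 and 243 counts in clone 1, 111 and 84 in clone 2, and 884 and 886 in parental cells. It fell with Gpr17, with a log2 fold change of -2.58 (SE 0.36, adjusted p = 0.00656).

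The antisense RNA models Nkx2-2os and 6430503K07Rik overlap Nkx2-2, and both rose with it. Nkx2-2os had 441 and 503 counts in clone 1, 556 and 503 in clone 2, and 116 and 104 in parental cells, and rose by 2.13 (SE 0.18, adjusted p = 0.00134). The shorter 6430503K07Rik rose by 2.66 (SE 0.19, adjusted p = 0.000813). Gm15966, a noncoding RNA whose 3' end overlaps the last bases of Olig1, rose by 1.88 (SE 0.31, adjusted p = 0.0116), to 1.19 CPM in clone 1 and 1.26 CPM in clone 2, against 0.338 CPM in parental cells. Dnajc7, a chaperone gene that overlaps Cnp, had a log2 fold change of 0.14 (SE 0.16, adjusted p = 0.558), and the pseudogene Rpl21-ps8, which overlaps Mbp, one of 0.34 (SE 0.14, adjusted p = 0.142).

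**Figure D5:**
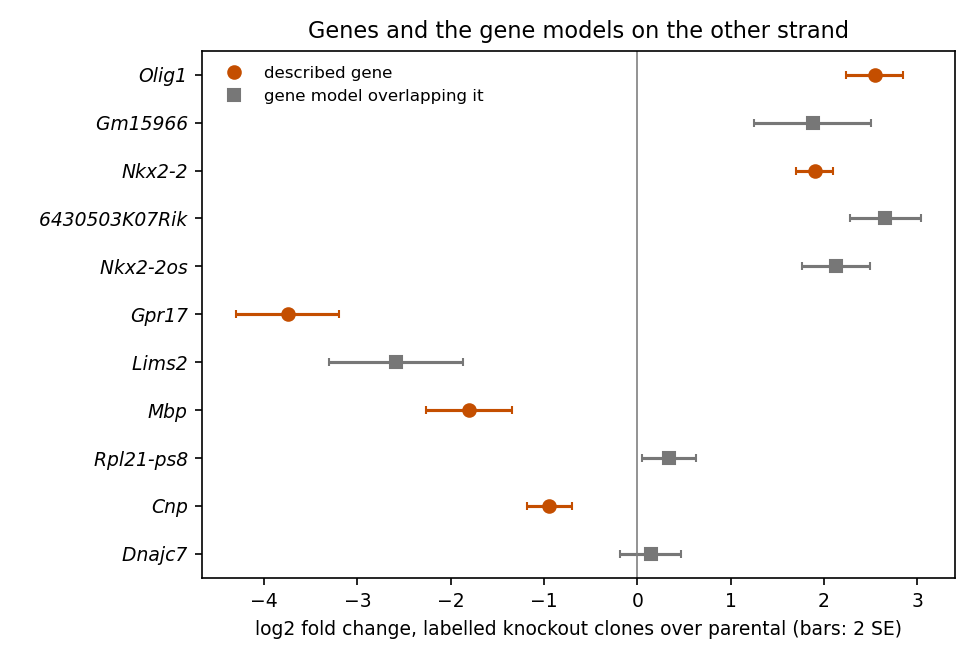
Log2 fold change of the labelled knockout clones over parental cells, with bars of 2 SE on either side, for 5 of the genes (circles) and the gene models that overlap each on the other strand (squares, listed under it). Models at Olig1, Nkx2-2 and Gpr17 lie on the same side of 0 as the gene.

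Olig1 and Olig2 lie 44315 bases apart, start to start, on chromosome 16, and both rose. Of 10 tested genes that start within 200 kb of the start of Olig1, 3 rose and 1 fell, beside 13.0% and 13.6% of all genes. The 3 were Olig2, Gm15966 and the gene model Gm49614, which starts 2531 bases from Olig2 on the other strand and rose by 0.86 (SE 0.17, adjusted p = 0.0198). Ifnar2, the nearest other protein gene, had 16.1 CPM in clone 1, 14.9 CPM in clone 2 and 18.1 CPM in parental cells and did not pass (adjusted p = 0.256). Around Sox10 1 of 17 tested genes rose and 4 fell, with Polr2f, a subunit gene of the RNA polymerases, down by 0.62 (SE 0.14, adjusted p = 0.0293). Near Myrf 2 of 11 rose and 3 fell, and near Gpr17 0 of 9 rose and 3 fell.

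Genes whose pattern over the 6 libraries was most like that of a member were sought by the Euclidean distance of log2 CPM centred on each gene's mean, among 12882 genes of at least 1 CPM. Olig2 and Nkx2-2 were the closest of the 9 to each other, at 0.26. Nearest to Olig1 was Ntn1, a guidance gene (distance 0.12), with 368 CPM in clone 1, 445 CPM in clone 2 and 74.7 CPM in parental cells, then Kcnj12 (0.15) and Ttpa (0.16). Nearest to Olig2 were Slc38a3 (0.08), Ptprj (0.10) and Shc4 (0.11), and nearest to Nkx2-2 were Lama5 (0.10), Fzd10 (0.10) and Fat4 (0.12). Cspg4 had Vash1 (0.05), Wscd1 (0.09) and Pck2 (0.12). Among the genes that fell, Psd2 (0.14), Tspan15 (0.16) and Map1b (0.26) were nearest to Gpr17, Mgat5 (0.07) and Trappc10 (0.08) were among the nearest to Cnp, and Fam83d (0.12), Axl (0.13) and Plekhb1 (0.16) were nearest to Myrf. Within a distance of 0.5 lay 9 genes for Gpr17, 40 for Olig1, 125 for Olig2 and 162 for Myrf. For Cspg4 there were 179, for Nkx2-2 188 and for Cnp 536, so Gpr17 had the fewest. The distance is not scaled to the size of a gene's change, and Gpr17 changed the most of the 9. These counts therefore do not compare how common the patterns are.

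Libraries held 60924858 to 69530032 counts in the clones and 58871554 and 63879208 in parental cells. At like depth, 30747 to 32686 genes had a count in the libraries of the clones, against 37678 and 37419 in the parental libraries. The part of this difference in the falls of genes with few counts, such as Mbp, Myrf and the myelin list, was not tested. Among the 9 genes the 2 libraries of a group differed little, with a median coefficient of variation of 5.24% in clone 1, 3.68% in clone 2 and 1.64% in parental cells. The largest were 27.4% for Mbp in clone 1, 17.3% for Mbp in clone 2 and 18.1% for Sox10 in parental cells, both genes with few counts. Few counts did not always go with a wide spread. Mbp in parental cells, with 84 and 79 counts, was at 1.64%, and Sox10 in clone 1, with 39 and 47, at 9.95%.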

How the data were processed

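The deposited table held whole-number counts per gene, not normalized, for the 6 libraries. Per the submitters' processing notes the authors used STAR and featureCounts with builds GRCm38.p6 and mm10; the sources used here give no setting for strand or multi-mapped reads. Per the labels' protocols, libraries were made with either an ultra-low input kit or a TruSeq kit, with no label of which library had which.

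Counts were analysed with R 4.3.3 and edgeR 4.0.16: filterByExpr (minimum count of 10), TMM scaling and the robust quasi-likelihood test over all genes, adjusted by Benjamini-Hochberg at 0.05. Labelled knockout against parental used the summed libraries of each clone (4 columns, 2 residual degrees of freedom). Comparisons of single clones used 6 libraries in 3 groups (3 residual degrees of freedom). An SE is the absolute log2 fold change divided by the square root of F. Exon lengths, overlaps and positions came from GENCODE on GRCm38, which held 41791 of the 42365 genes. Promoters came from RefSeq. Log2 CPM used a prior count of 2. Tests were tried on simulated data.

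The 9 genes and the lists were chosen with earlier results of these data known. Besides the 9, up to 4 genes per list with the smallest adjusted p and a mean of at least 1 CPM were named, with Pdgfra, Mog and Ptprz1, the 3 nearest patterns, and overlapping or near gene models. Sox2, Prom1, Pdgfrb, Foxd3, Ifnar2, Polr2f, Enpp6, Sirt2, Zfp24, S100b, Slc1a2 and the genes of the closing observations were picked with their values in view. The values of the targeted gene and of some others are not reported here. Alternatives were DESeq2 1.42.0, limma-voom (limma 3.58.1), 2 scalings, 2 filters, a replicate block, single libraries as replicates and leaving out each library.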

Additional observations from a re-analysis of the deposited data

Results flagged for a closer look

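For 6 of the 9 genes the effect in clone 2 differed from that in clone 1, by the contrast of the 2 clones in edgeR's fit of single libraries. By the same contrast, 16.1% of all 23400 genes were called higher in clone 2 and 20.3% lower. On the log2 scale the difference was 1.98 for Sox10 (SE 0.21, adjusted p = 1.92e-06), which was below parental cells in clone 1 and above them in clone 2, by both libraries of each. For Gpr17 it was -0.78 (SE 0.06, adjusted p = 4.23e-08), with 8.44 CPM in clone 2 and 14.5 CPM in clone 1. Myrf differed by -0.55 (SE 0.13, adjusted p = 0.00424), and by -0.49 with an adjusted p of 0.0604 without library 1 of clone 2. Cspg4 differed by 0.41 (SE 0.04, adjusted p = 2.16e-06), Olig1 by 0.37 (SE 0.04, adjusted p = 5.94e-06) and Cnp by 0.27 (SE 0.05, adjusted p = 0.000194). Each clone is represented by 2 libraries, which the labels do not describe as grown apart. Groups of 2 libraries are too small to look for single libraries that stand apart.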

How the results depend on the processing

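Of 465 values of the 9 genes under other settings, 455 kept their direction and their side of the threshold, 3 kept only the direction and 7 turned. The calls of Olig1, Olig2, Nkx2-2, Gpr17, Cspg4, Mbp and Cnp in labelled knockout against parental cells held in every setting that tested them. The 3 calls lost were those of Myrf given above. Sox10, not called in that comparison, turned to -0.10 with limma-voom and the clone as a random block, -0.0536 with a replicate block and -0.12 with single libraries as replicates. In clone 2 against clone 1, 3 genes that were not called turned when a library was left out: Olig2 ranged from -0.0224 to 0.0695, Nkx2-2 from -0.0311 to 0.11 and Mbp from -0.31 to 0.23. Calls in the wider oligodendrocyte list, 26 with the clones as replicates, numbered 46 with single libraries as replicates and 16 to 28 when 1 library was left out. In clone 1 against parental cells, 41 became 26 at a mean of at least 5 CPM, where 31 of its genes were tested. Over all genes, 6532 were called with the clones as replicates, 13213 with single libraries as replicates, 3798 at a mean of at least 5 CPM, 2544 without parental library 1 and 2529 without parental library 2; in single clones that filter gave 8019 against 12752 (clone 1) and 7850 against 12520 (clone 2). The filter left Sox10, Mbp and Myrf untested. The replicate numbers pair nothing that the labels name, and same-numbered libraries deviated together at correlations of -0.0152 to 0.0191, so the block gives no paired evidence; it changed no call of the 9 genes. For the turned values the cause was not tested. Depth limits Mbp and Sox10, with 20 to 163 counts a library.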

Other observations

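Among the 51 genes of the wider list tested between the clones, 13 were higher and 21 lower in clone 2, where 16.1% of all 23400 genes were higher and 20.3% lower, and 5 of them, chosen after their values were seen, are given here. Pcdh15, a protocadherin gene of precursors, had 166 CPM in clone 1, 25.9 CPM in clone 2 and 135 CPM in parental cells. Tnr, which encodes the matrix protein tenascin-R, had 159 CPM in clone 1, 63.1 CPM in clone 2 and 221 CPM in parental cells. Pdgfra was likewise lower in clone 2, at 31.2 CPM, than in clone 1, at 56.7 CPM. For these 3 genes clone 2 was the lower clone, whereas Olig1 and Cspg4 were higher there. Ugt8a, the galactolipid enzyme gene of myelin, had 0.312 CPM in clone 1, 3.88 CPM in clone 2 and 3.02 CPM in parental cells, and was low in clone 1, as was Sox10. Opalin, a myelin membrane protein gene, had 1.42 CPM in clone 1, 0.388 CPM in clone 2 and 0.193 CPM in parental cells. The log2 difference of clone 2 from clone 1 was -2.68 for Pcdh15, -1.33 for Tnr, -0.86 for Pdgfra, 3.62 for Ugt8a and -1.87 for Opalin in edgeR's quasi-likelihood test, with adjusted p of at most 0.000219.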
